A study of Mus musculus with 2 samples.

Results

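The trefoil factor genes Tff1, Tff2 and Tff3 and the clusterin gene Clu were followed in RNA from a mouse pancreas. These 4 genes were taken, of 43346 gene rows in all, by matching gene identifiers to symbols, and they were chosen by their measured TPM, because Tff2 and Clu stood highest among genes used to mark pancreatic duct cells. Their levels, also beside duct markers, are therefore a description with no test. The tissue came from 1 adult female mouse of the inbred strain C57BL/6J aged 10 weeks, for which no genetic change or treatment is labelled. Polyadenylated RNA was sequenced as 2 technical replicate libraries of that biological sample, so errors describe the libraries and not mice, and no condition is compared with another.

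Trefoil factors are small secreted peptides held together by disulfide bonds in a cloverleaf fold, the trefoil domain. They are released with mucins onto wet epithelia, where they take part in repair of the surface: Tff1 is typical of the surface mucous cells of the stomach, Tff2 of its mucous neck cells, and Tff3 of intestinal goblet cells. Tff1 and Tff3 carry a single trefoil domain, and Tff2 carries a pair. Clusterin, also called apolipoprotein J, is a secreted glycoprotein that is cut into linked chains, binds unfolded proteins outside the cell and restrains the membrane attack complex of complement.

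The expected counts, the authors' estimates of the reads belonging to each gene, summed to 9441559 in replicate 1 and 9797569 in replicate 2. A set of 51 dominant rows, made up of the mitochondrial genes with 11 nuclear copies of them and of Lars2, Gm42418 and Gm26917, took 46.5% of TPM in replicate 1 and 44.1% in replicate 2. In counts the libraries differed more and in the other direction, with the larger share of the set in replicate 2. Outside this set 5801288 of 9441559 counts were left in replicate 1 and 4644835 of 9797569 in replicate 2. Tff2 made up 0.083% of the counts left in replicate 1 and 0.136% in replicate 2. TPM is a relative transcript abundance corrected for effective length, and it is the scale of all levels below unless counts are named. The tissue label was checked with 12 acinar cell markers, all of which reached at least 1 TPM in both libraries (median 13745 TPM in replicate 1 and 10166 TPM in replicate 2). Confidence intervals and limits for a count of 0 cover counting error only, since PCR copies of a molecule are counted as separate reads.

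Of the trefoil factors only Tff2 was detected. Tff2 (ENSMUSG00000024028.7) had 4800 expected counts in replicate 1 and 6314 in replicate 2. These correspond to 1304 and 1945 TPM, with a mean of 1624 ± 453 TPM (SD, n = 2 technical libraries). As a share of all counts (CPM) replicate 1 gave 508, with an exact 95% interval of 494 to 523. Replicate 2 gave 644 CPM, with an interval of 629 to 661, so replicate 2 was the higher library. Tff2 stood at rank 58 of all gene rows in replicate 1 and at rank 47 in replicate 2. The deposited posterior standard deviation of its count was 0 in both libraries, so the deposited estimate divided no reads between Tff2 and another gene.

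Tff1 (ENSMUSG00000024032.6) and Tff3 (ENSMUSG00000024029.4) had 0 expected counts in both libraries. A count of 0, bounded at 3 counts per library, allows up to 0.318 CPM in replicate 1 and 0.306 in replicate 2. The 2-sided 95% Clopper-Pearson bounds for the same 0 counts are higher, at 0.391 and 0.377 CPM, and the limits and folds that follow use 3 counts. Per length this limit was 1.09 and 1.23 TPM for Tff1. For Tff3 it was 1.04 and 1.17 TPM. Against these limits Tff2 was at least 1198-fold higher than Tff1 in replicate 1 and at least 1587-fold higher in replicate 2, which leaves out counting error in Tff2. Against Tff3 it was at least 1255-fold and 1660-fold higher. An empty row was common at this depth, since 28.4% of 21474 protein coding genes had 0 counts in both libraries.

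Clu (ENSMUSG00000022037.10) had 2954 expected counts in replicate 1 and 1959 in replicate 2. The corresponding levels were 207 and 157 TPM, with a mean of 182 ± 35.1 TPM (SD, n = 2). Clu reached 313 CPM in replicate 1, with an exact 95% interval of 302 to 324, and 200 CPM in replicate 2, with one of 191 to 209, so here replicate 1 was the higher library. Its rank was 146 in replicate 1 and 178 in replicate 2, and its posterior standard deviation was 0 as well. The order of the levels was thus Tff2, then Clu, then Tff1 and Tff3 together at 0. The lower Tff2 library lay above the higher Clu library, whereas Tff1 and Tff3 cannot be ordered.

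**Figure D1:**
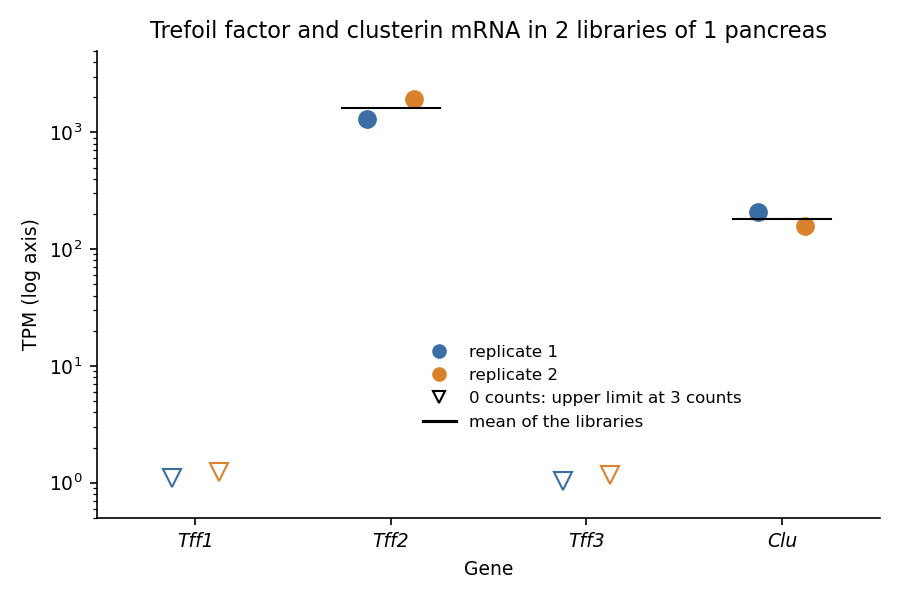
TPM on a log axis for each of the 4 genes in replicate 1 (blue) and replicate 2 (orange), with a line at the mean of the libraries; open triangles mark the upper limit that 0 counts allow. Tff2 lies at 1304 and 1945 TPM and Clu between 157 and 207 TPM, while Tff1 and Tff3 have no counts and limits between 1.04 and 1.23 TPM.

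The 3 trefoil genes lie side by side within 40.0 kb of chromosome 17 (GRCm38, 31125306 to 31165277), all on the minus strand and with no other protein coding gene between them. Each interval given here is that of the annotated gene body with its exons and introns. Tff3 spans 31125306 to 31129646, Tff2 31141049 to 31144282 and Tff1 31161395 to 31165277. The expressed gene is the middle one, 11.4 kb from Tff3 and 17.1 kb from Tff1. Other genes near the cluster were also empty or nearly so. Umodl1 had 0 counts in both libraries, Tmprss3, a serine protease gene, 2 and 0, and Ubash3a, a lymphocyte signalling gene, 0 and 3. Rsph1, a gene of motile cilia, had 7 and 6 counts. Abcg1, which encodes a cholesterol exporter, reached 2.29 and 1.96 TPM, and Glp1r, the receptor of an incretin hormone, 1.39 and 3.60 TPM. No level among the 3 nearest protein coding genes on either side came near that of Tff2.

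Clu lies on chromosome 14 (GRCm38, 65968483 to 65981547, plus strand). The 3 protein coding genes before it were Esco2, a cohesin acetyltransferase gene, with 0 counts in both libraries, Ccdc25 at 7.82 and 4.29 TPM and the scavenger receptor gene Scara3 with 255 and 181 counts, a mean of 8.20 ± 1.14 TPM (SD, n = 2). Of the 3 after it, Gulo, the last enzyme of vitamin C synthesis, and the sperm surface gene Adam2 had 0 counts in both libraries, and the epoxide hydrolase gene Ephx2 stood at 1.53 and 3.10 TPM. Clu was thus the highest gene of its neighbourhood in both libraries, as Tff2 was in its own.

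**Figure D2:**
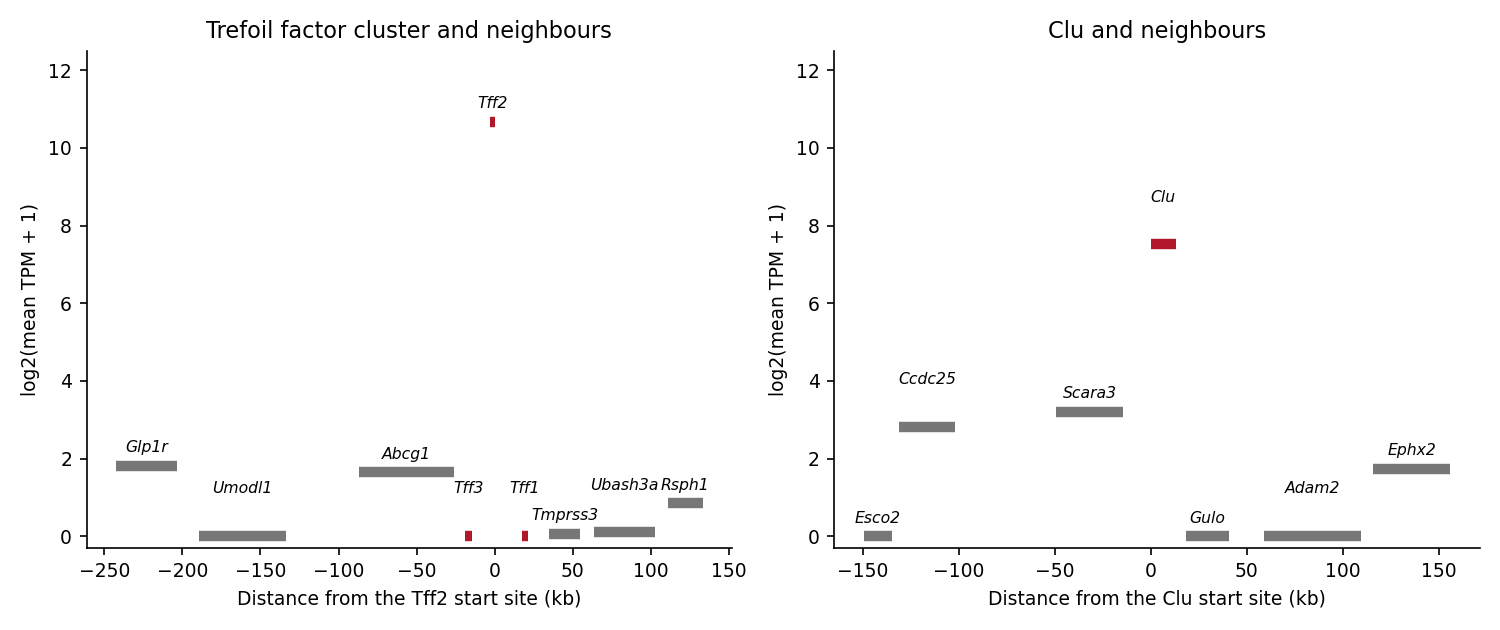
Mean level of each protein coding gene, as log2(mean TPM + 1), against distance in kb from the start site of Tff2 (left) or Clu (right); bars span the gene bodies, with the trefoil genes and Clu in red and the 3 nearest neighbours on each side in grey. Tff2 rises alone among 2 trefoil neighbours at 0, and the highest neighbour of Clu, Scara3, has a mean of 8.20 TPM.

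Tff2 has 1 transcript in the annotation used, so all of its counts are assigned to that transcript. Clu has 9 transcripts, and a coding transcript of 1811 bases (ENSMUST00000022616.8) carried nearly all of its level. It held 98.4% of Clu TPM in replicate 1 and 99.4% in replicate 2, with a mean of 98.9% ± 0.667 (SD, n = 2). The remainder fell to a form with a retained intron (ENSMUST00000146990.1), with 19.16 expected counts in replicate 1 and 5.05 in replicate 2. The other 7 transcripts of Clu had 0 expected counts in both libraries. They include a form annotated for nonsense-mediated decay and another with a retained intron. The posterior standard deviation of the count of the main transcript was 6.35 and 2.19 reads, small beside its 2935 and 1954 expected counts.

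The cell types that the tissue piece could hold were read from marker lists. In a bulk sample, fewer cells of a type and less RNA per cell cannot be told apart. Of 24 duct markers, which do not include Tff2 or Clu, 19 reached 1 TPM in both libraries and none was empty in both. The highest was Spp1, which encodes the secreted matrix protein osteopontin, at 99.1 and 81.3 TPM. By the mean of the libraries it was followed by the surface glycoprotein gene Cd24a at 62.7 and 29.7, the water channel gene Aqp1 at 38.8 and 47.8, and the keratin gene Krt18 at 38.1 and 36.1 TPM. Both Tff2 and Clu stood above every duct marker in both libraries, which follows from how they were picked. The 24 duct markers summed to 364 TPM in replicate 1 and 338 in replicate 2. Tff2 alone equalled 3.58 and 5.75 times that sum, and Clu 56.8% and 46.5% of it. Cftr, the chloride channel of duct cells, reached only 0.300 and 0.220 TPM.

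Since Tff2 is best known from the stomach, markers of gastric mucous and parietal cells were set beside it. Of 14 such genes 8 had 0 counts in both libraries: Muc5ac, Gkn1, Gkn2, Gif, Pgc, Atp4b, Ctse and Vsig1. Only the sulfotransferase gene Sult1c2 reached 1 TPM in both, with 22 and 18 counts and a mean of 1.46 ± 0.0636 TPM (SD, n = 2). Gkn3, a gastrokine of the mucous neck cells, had 8 and 4 counts, Atp4a, a subunit of the acid pump, 13 and 8, and the chitinase gene Chia1 0 and 1. Muc6, the mucin that accompanies Tff2 in gastric glands, had 0 counts in replicate 1 and 1 in replicate 2. The whole gastric list summed to 3.32 and 2.61 TPM, against 1304 and 1945 TPM for Tff2 alone. The defining gastric genes were therefore at or near 0 in the libraries in which Tff2 was abundant.

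Markers of the gut were also low, apart from 1 gene that acinar cells make as well. Zg16, a lectin of zymogen granules and of goblet cells, reached 10845 and 13435 TPM. Without it the other 17 genes of the intestinal list summed to 15.2 and 16.4 TPM, and 14 of them stayed under 1 TPM in at least 1 library. The next highest by mean were the galectin gene Lgals4 at 7.14 and 6.74 TPM, the lysozyme gene Lyz1 at 4.89 and 2.51 and the microvillus gene Vil1 at 2.05 and 2.67. Clca1, Sis, Lct, Alpi and Cdx2 had 0 counts in both libraries. Tff3 at 0 thus stood beside a goblet cell mucin, Muc2, with 8 and 4 counts.

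Tff2 and Clu lay below the major products of acinar and islet cells. Of the 12 acinar markers 8 were above Tff2 in both libraries, among them the chymotrypsinogen gene Ctrb1, highest by the mean of the libraries, at 27460 and 38071 TPM. The elastase gene Cela2a and the lipase gene Pnlip had means of 31718 ± 21235 and 16832 ± 1863 TPM (SD, n = 2). The amylase gene Amy2a5, at 26269 ± 2678 TPM, is uncertain, because it shares reads with near-identical copies and its count of 381171 in replicate 1 carried a posterior standard deviation of 218166. Of the 12 islet markers the insulin genes Ins2, at 13969 and 17977 TPM, and Ins1, at 2157 and 2617, were above Tff2 in both libraries, and 6 were above Clu. Gcg, the glucagon gene, was above Tff2 in replicate 1, at 4235 TPM, and below it in replicate 2, at 1566 TPM. Iapp, the gene of islet amyloid polypeptide, stood at 914 and 828 TPM. Of 13 stromal, endothelial and myeloid markers none exceeded Tff2. The matrix gene Dcn, at 442 and 218 TPM, was the only one above Clu in both libraries, and the endothelial gene Plvap followed at 98.6 and 127, the myeloid lysozyme gene Lyz2 at 86.4 and 82.7 and the smooth muscle actin gene Acta2 at 89.1 and 60.9 TPM.

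**Figure D3:**
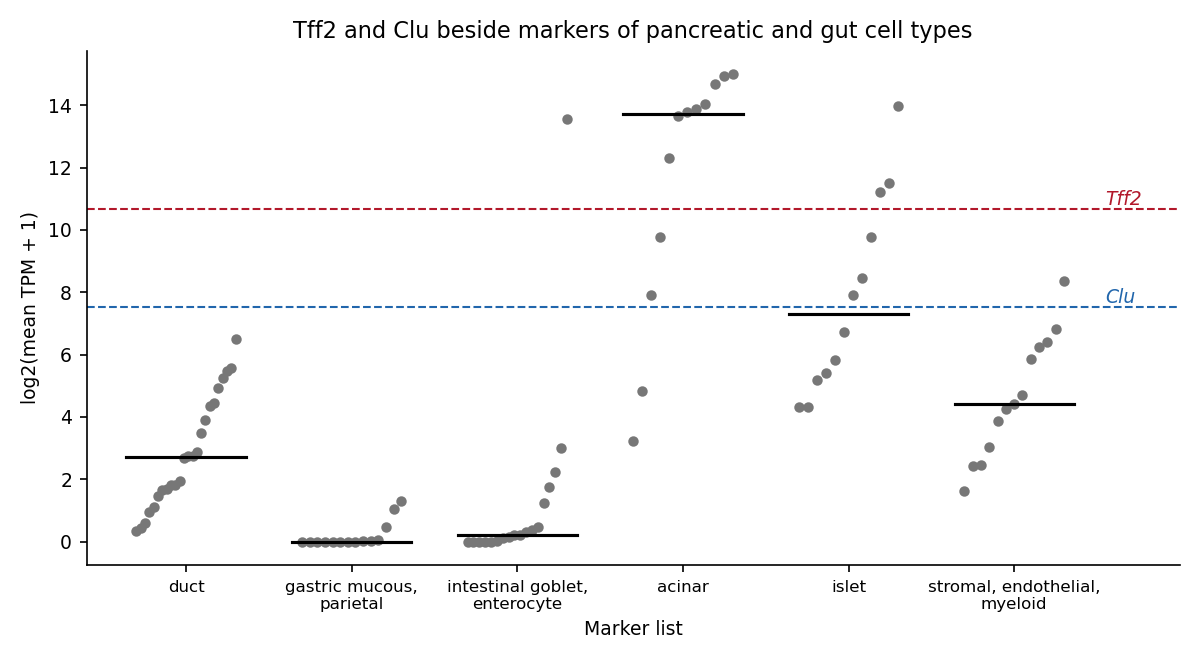
Each point is 1 marker gene, placed by log2(mean TPM + 1) within its list; short black lines are list medians and dashed lines the levels of Tff2 (red) and Clu (blue). All 24 duct markers and all 14 gastric markers lie below both dashed lines, and Zg16 is the only intestinal marker above them.

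The partners of the trefoil factors were mostly scarce. Among 13 mucins and mucin partners, 3 reached 1 TPM in both libraries and 5 were empty in both. Dmbt1, a scavenger protein of mucosal and pancreatic secretions that binds trefoil factors, led them at 425 and 342 TPM. The membrane mucin genes Muc1 and Muc4 followed at 25.9 and 33.3 TPM and at 2.43 and 1.81 TPM. Agr2, a disulfide isomerase needed for mucin folding, had 3 counts in replicate 1 and 1 in replicate 2. Outside the family, the trefoil domain also occurs in the lysosomal glucosidase Gaa, at 7.07 and 8.71 TPM, and in Mgam, with 20 and 1 counts, while Sis and Zp1 had 0 counts.

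Of 7 genes proposed to encode receptors for trefoil factors, 3 reached 1 TPM in both libraries. Cd74, also the invariant chain of antigen presenting cells, stood at 65.8 and 57.2 TPM, the chemokine receptor gene Ackr3 at 9.19 and 7.48 and the growth factor receptor gene Egfr at 2.79 and 1.60. Cxcr4, described as a receptor of Tff2, reached 2.09 TPM in replicate 1 and 0.960 in replicate 2, and Lingo2, described for Tff3, had 0 counts. Of 13 regulators described for trefoil genes 9 reached 1 TPM in both libraries. Klf4 reached 11.6 and 8.12 TPM, Spdef, a regulator of secretory cells, 7.42 and 9.55, and Foxa2 7.80 and 6.44. Foxa1 and Cdx2 had 0 counts in both libraries.

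Tff2 and Clu are both secreted proteins with disulfide bonds, and several genes for the folding of such proteins were abundant. Of 12 convertases and folding factors 11 reached 1 TPM in both libraries. The pancreatic disulfide isomerase gene Pdia2, at 980 and 1555 TPM, and P4hb, at 291 and 311, were above Clu in both. Hspa5, the chaperone BiP, stood at 198 and 152 TPM, and Pdia3 had a mean of 67.2 ± 24.3 TPM (SD, n = 2). The convertase genes were lower than these. Furin, a convertase of the Golgi, reached 5.63 and 8.07 TPM, Pcsk6 7.93 and 6.16, Pcsk7 3.03 and 3.47 and Pcsk5 1.12 and 0.520 TPM.

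Of 11 receptors described for clusterin 8 reached 1 TPM in both libraries, all far below Clu itself. Lrp1 led at 17.6 and 23.6 TPM, with Tgfbr2 at 14.3 and 10.6, the sorting receptor gene Sort1 at 7.30 and 4.71 and Vldlr at 6.68 and 4.55. Lrp2, the megalin gene, stood at 0.690 and 0.670 TPM, and Trem2 at 0.150 and 1.59. Of 14 complement genes around the terminal pathway, which clusterin restrains, 6 reached 1 TPM in both libraries. C3, the central component, was at 253 and 118 TPM, above Clu in replicate 1 alone, the inhibitor vitronectin, Vtn, at 13.3 and 10.9 and Cd55 at 7.91 and 3.60. Of the genes for the membrane attack complex Hc, C8a and C9 had 0 counts in both libraries. C6, C7, C8b and C8g stayed at or under 1.25 TPM.

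Among 12 genes listed with apolipoproteins and chaperones, none exceeded Clu in both libraries. Apoe, at 128 and 161 TPM, was above Clu in replicate 2. The ratio of Clu to Apoe TPM was 1.61 in replicate 1 and 0.976 in replicate 2. Serping1, an inhibitor of early complement proteases, reached 105 and 63.7 TPM, Sdf2l1 13.9 and 23.9, and the small heat shock gene Cryab 21.5 and 11.8. Tff2 and Clu are also read as signs of acinar injury and metaplasia, so 18 such genes, both included, were examined. Of these 12 reached 1 TPM in both libraries. Nupr1, a stress-induced chromatin gene, stood at 3877 and 1909 TPM, above Tff2 in replicate 1 and below it in replicate 2. Clu came next in both libraries. Below Clu lay Spp1 at 99.1 and 81.3 TPM, Vim at 63.8 and 89.1, Krt19 at 18.0 and 21.1 and Anxa1 at 17.7 and 15.3 TPM. Muc6 and Gkn3, which mark mucous metaplasia in the stomach, stayed at the 0 to 8 counts given above, Sox9 reached 3.05 and 1.30 TPM and Reg3b 7.49 and 3.72.

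The genes nearest to Tff2 and Clu in level were sought among 10293 others with 1 TPM or more in both libraries, by the distance in log2(TPM + 1) over the 2 libraries. With 2 libraries of 1 sample this describes level and library ratio alone. Nearest to Tff2 were the trypsin inhibitor gene Spink1, at 1033 and 1739 TPM (distance 0.373), Tpt1, at 1671 and 1673 (0.419), and Pdia2 (0.523). Nearest to Clu were Rpl14, at 198 and 152 TPM (0.082), Hspa5 (0.083) and Gnas, at 214 and 139 (0.180). Clu had close neighbours in level, while those of Tff2, in the sparse upper range, were further off.

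The libraries were then compared for these genes. In counts scaled by TMM factors, Tff2 was 1.84-fold higher in replicate 2 than in replicate 1 and Clu was 1.08-fold lower. Neither difference was large enough to be called. With library sizes scaled by TMM factors from edgeR, the log2 ratio of replicate 2 over replicate 1 was 0.88 for Tff2 (95% exact interval 0.82 to 0.93; adjusted p = 5.53e-222, exact binomial test of the counts with Benjamini-Hochberg adjustment over 12452 genes). For Clu it was -0.11 (-0.19 to -0.03; adjusted p = 0.0278 in the same test). This test compares 2 libraries and not conditions, holds counting error only and has no replicate check. Calls required both a size of at least 1 on the log2 scale and an adjusted p below 0.05. Of the 2 genes with enough counts to be tested, 0 were called, where 12.3% of all tested genes were called, 8.31% as higher in replicate 2 and the others as lower. With 2 genes tested, 0 calls cannot be set apart from that background.

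Both values depended on the scale. With library totals in place of TMM factors every log2 ratio shifts by -0.54, and those of Tff2 and Clu became 0.34 and -0.65. After removal of a smooth trend on GC content and transcript length they were 0.50 and -0.47. Tff2 stayed above and Clu below 0 under each scaling tried, and neither reached the size threshold. The calls over all genes moved too, from 1035 higher and 498 lower to 342 and 2603 with library totals, where 2.75% were called higher and 20.9% lower, and to 518 and 476 after the trend. When a dispersion of 0.1 was assumed, the exact test of edgeR gave an adjusted p of 1 for Tff2 and for Clu.

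**Figure D4:**
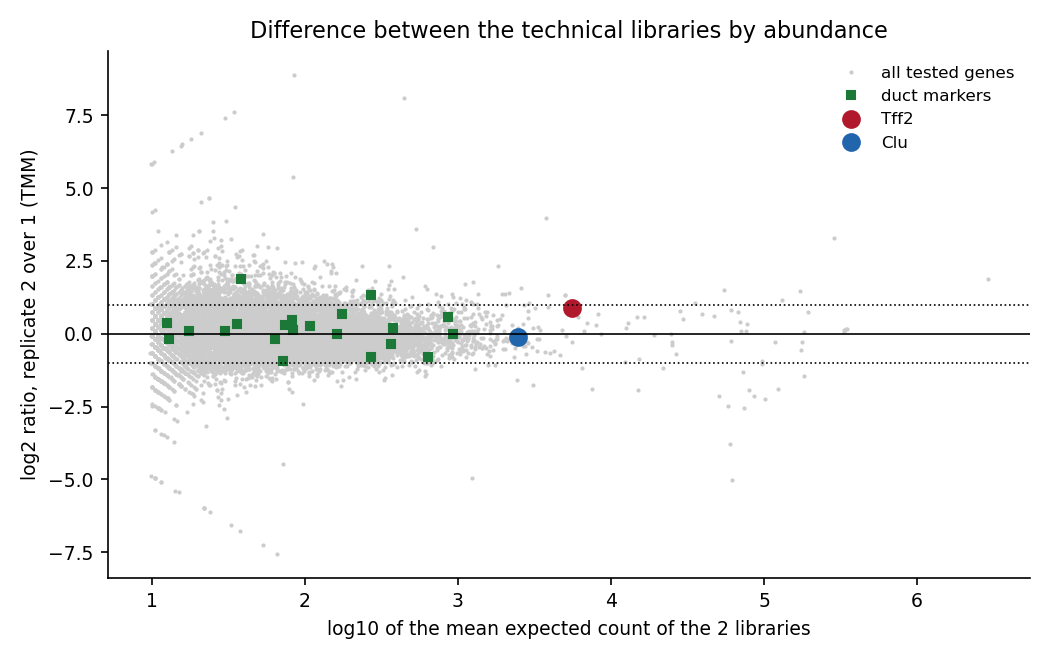
Log2 ratio of replicate 2 over replicate 1 with TMM scaling against log10 of the mean expected count for 12452 tested genes (grey), with tested duct markers (green), Tff2 (red) and Clu (blue); dotted lines mark the size threshold of 1. Tff2 at 0.88 lies just inside the threshold and Clu at -0.11 near the line of no difference.

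The change of Tff2 relative to Clu does not depend on library scaling. Tff2 had 1.62 counts for each count of Clu in replicate 1 and 3.22 in replicate 2, a 1.98-fold difference (95% exact interval 1.85 to 2.13), or 0.99 on the log2 scale. In TPM the ratio of Tff2 to Clu was 6.30 in replicate 1 and 12.4 in replicate 2. This pairing was chosen after the values were seen, and its interval holds counting error between 2 libraries only. Among 194 tested genes of similar abundance, with mean counts of 1000 to 10000, the interquartile range of the log2 ratios ran from -0.37 to 0.43. Of these genes 12.9% lay above Tff2 and 45.4% below Clu. Tff2 thus lay above the interquartile range of these genes and Clu within it. How often other pairs of abundant genes differ as much as Tff2 and Clu was not tested.

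**Figure D5:**
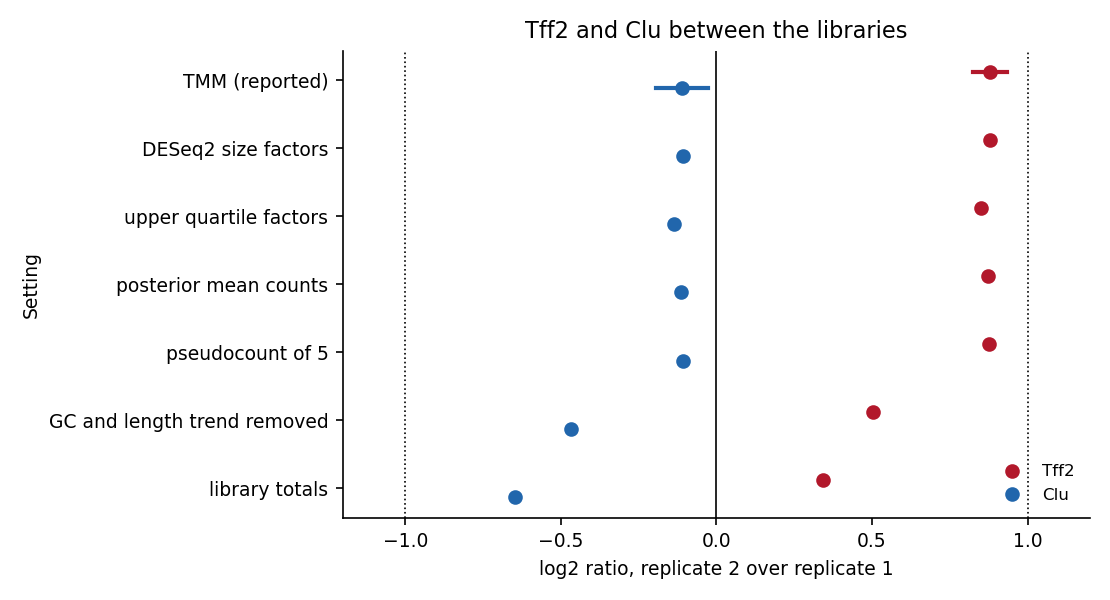
Log2 ratio of replicate 2 over replicate 1 for Tff2 (red) and Clu (blue) under each scaling or count setting, with 95% exact intervals on the TMM values; dotted lines mark the size threshold of 1. The pair shifts together, from 0.88 and -0.11 with TMM to 0.34 and -0.65 with library totals, and neither gene passes the threshold.

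Other genes of the lists gave the setting for these values. Of 21 tested duct markers 2 were called higher in replicate 2, the keratin gene Krt8 at 1.32 and the tight junction gene Cldn7 at 1.88 on the log2 scale, and none lower. With library totals Cldn7 was still called higher, Krt8 was not, and Sox9 and Cd24a were among those called lower. The median log2 ratio of the duct list was 0.12, against -0.01 over all tested genes. The ratio of Tff2 to Krt19 TPM, Krt19 being a duct keratin, was 72.5 and 92.0, while that of Clu to Krt19 was 11.5 and 7.45. The ratio of Tff2 to Ctrb1 TPM was 0.0475 and 0.0511, and that of Tff2 to the ribonuclease gene Rnase1 was 0.0643 and 0.237. Of 12 acinar markers Cela2a was called higher and Rnase1 lower, and of 12 islet markers Ppy higher and Gcg lower. With library totals the Cela2a call was lost, and Chgb among the islet markers and Dcn, Pecam1 and Cd68 among the stromal, endothelial and myeloid markers were called lower in addition. Among partners of the members, Muc4 (-1.58), Mgam (-3.29) and the complement inhibitor gene Cd59a (-1.08) were called lower and Hp (1.83) and Sdf2l1 (1.06) higher, of which the Sdf2l1 call was lost with library totals. None of the 5 tested receptor genes for trefoil factors and none of the 10 for clusterin was called. With so few genes this cannot be set apart from the 12.3% called over all tested genes. With library totals Cxcr4 and Egfr were called lower. Over all 15 lists 125 distinct genes other than Tff2 and Clu were tested, of which 6 were called higher and 5 lower, with a median log2 ratio of 0.07. With library totals 3 of the 125 were called higher and 26 lower.

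In sequence terms, Tff2 is a short transcript and Clu one of ordinary length. The Tff2 transcript measures 584 bases, shorter than all but 1.81% of tested genes, whose median was 2584 bases. That of Clu averaged 1796 bases in replicate 1 and 1805 in replicate 2. GC content was 53.6% for Tff2 and 55.6% for Clu, against a median of 50.2% over tested genes. The part of length and GC content in the library difference was not tested beyond the trend given above, which had a value of 0.38 for Tff2 and 0.36 for Clu on the log2 scale.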

How the data were processed

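Polyadenylated RNA of 1 pancreas was measured in 2 technical libraries. Per the deposited README files the build was mm10 with GENCODE M4, while the aligner was not given in the sources used here. The deposited tables hold expected counts, TPM, FPKM, posterior mean TPM with the posterior standard deviation of the count (handled as signal values, per the file headers) and the percent of each isoform. GENCODE M21 (GRCm38) supplied symbols and positions for 42462 of 43346 identifiers. Of the listed symbols Cblif was not matched, and C5 was found as Hc.

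Expected counts were rounded and scaled by TMM (edgeR 4.0.16, R 4.3.3). For the 12452 genes with a mean of 10 counts or more, the library counts were compared by an exact binomial test, two-sided, because 1 library a side leaves edgeR no residual degrees of freedom. For log2 ratios 0.5 was added to both counts. The procedure was run on simulated counts with planted changes and Poisson error. Such counts hold counting error only, so this run does not cover other differences between the real libraries. Intervals are Clopper-Pearson, at 95%. Alternatives were DESeq2 1.42.0 size factors, upper quartile factors, library totals, posterior means, other filters, a pseudocount of 5, an assumed dispersion and a polynomial trend on GC content and effective length. BLAST+ 2.17.0 identified the nuclear copies (identity of 95% across 90% of the copy).

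The members and lists were chosen with earlier results of these data known. Named were the members, the 4 highest genes of each list, the 3 nearest protein coding genes per side and the 3 genes nearest in level; other list genes were named after their values were seen, and some genes that the rule names are not reported here.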

Additional observations from a re-analysis of the deposited data

How the results depend on the processing

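The log2 ratios of Tff2 and Clu kept their sign and stayed without a call under all 7 alternatives, from 0.34 to 0.88 for Tff2 and from -0.65 to -0.11 for Clu; Tff1 and Tff3, with 0 counts, have no ratio or isoform share. The number of called genes, 1533 with TMM factors, was 2945 with library totals (11.6% higher against 67.5%), 994 after the GC and length trend (52.1% higher), 649 when genes needed a mean of 50 counts and 45 with an assumed dispersion of 0.1. Rescaled without the dominant genes, mean levels were 2958 TPM for Tff2 and 334 TPM for Clu. As posterior means, which are never 0, Tff1 and Tff3 stood at 0.350 and 0.340 TPM and the main transcript held 97.2% of Clu. With either library left out, Tff2 ranged from 1304 to 1945 TPM, Clu from 157 to 207 TPM and the share of the main Clu transcript from 98.4% to 99.4%. The change of Tff2 against Clu was 0.97 after the trend, an alternative chosen after seeing the data. Depth limits Tff1 and Tff3 at about 1 TPM.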
